A study of Mus musculus with 13 samples.

Results

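Liver mRNA of p53 and of 9 genes that p53 switches on was measured in WT and *Nod2*-/- mice after exposure to a carcinogen. The 10 genes were set by name: *Trp53*, which encodes p53, and its targets *Mdm2*, *Ccng1*, *Cdkn1a*, *Btg2*, *Phlda3*, *Bax*, *Bbc3*, *Eda2r* and *Zmat3*. They are 10 of 53465 genes in the count table, all 10 were found there by Ensembl identifier, and all 10 were among the 13545 that passed the filter on low counts. The table held 1 polyA RNA-seq library from the liver of each of 6 WT and 7 *Nod2*-/- mice. All 13 animals were BALB/c mice of 30 weeks of age, with cancer as the disease state by the labels alone. All had received 7,12-dimethylbenz[a]anthracene (DMBA), a polycyclic aromatic hydrocarbon whose metabolites bind DNA. The study applied it once, to the backs of nursing pups, months before the livers were taken. All had been on a high fat diet, for 30 weeks by the labels and for a slightly different time by the study's text. The groups differed in genotype alone by their labels. The study reported liver tumours in a larger share of *Nod2*-/- than of WT males so treated, and not in every mouse of either group. The tumour burden of the livers was not analysed here, so that a difference in it between the groups cannot be told apart from genotype. By the study's methods the mice were males, and the WT and *Nod2*-/- mice were not littermates but came from colonies bred side by side, so that colony and genotype cannot be told apart. Every library came from an exposed animal. The comparison therefore addressed whether the p53 programme differed between the genotypes months after exposure, not what DMBA did to it.

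p53 is a transcription factor that is kept scarce in unstressed cells, since the ubiquitin ligase Mdm2 binds it and sends it to the proteasome. DNA damage stabilizes the protein, which then binds response elements near its targets and raises genes for growth arrest, for repair and for cell death, together with *Mdm2* itself, which closes a feedback loop. Its activity is therefore read from its targets more than from its own mRNA. In liver, p53 loss is a common event in hepatocellular carcinoma. *Nod2* encodes a cytosolic receptor for muramyl dipeptide, a fragment of bacterial peptidoglycan.

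Total counts per library ranged from 14886273 to 20579984 in WT and from 13824780 to 19391431 in *Nod2*-/- mice. *Nod2* itself had 0 to 4 counts in WT and 1 to 6 in *Nod2*-/- livers, too few to check the genotype labels. Hepatocyte genes were abundant in every library: 8 markers summed to between 79821 and 112250 counts per 1000000 (CPM) in WT and between 85119 and 177788 in *Nod2*-/- livers. Sums of other markers differed between libraries. A list of 12 neutrophil markers summed to 4.30 to 11.6 CPM in WT and to 7.08 to 1056 CPM in *Nod2*-/- mice, the highest being replicate 7. Of the 12, 5 were tested and all 5 were higher at unadjusted p under 0.05 by edgeR, as were 12.9% of all genes. On normalized counts the unadjusted exact permutation p-values of these 5 were 0.142 to 0.652. For the log2 of the sum of the 12 markers the unadjusted exact permutation p was 0.00816. The study had itself listed several of these markers from these libraries, *S100a8*, *S100a9* and *Csf3r* among them, so that this p is not independent evidence. The *Nod2*-/- medians of *S100a8*, *S100a9*, *Prtn3* and *Csf3r* were 74.8, 162, 92.2 and 49.9 normalized counts. The highest WT values were 24.6, 59.8, 31.9 and 41.6. For the fifth, *Cxcr2*, the receptor that guides neutrophils to chemokines, 6 of 7 *Nod2*-/- mice lay within the WT range and only replicate 7 was above it. A list of 10 lung epithelium markers summed to 14.7 to 205 CPM in WT and 3.0 to 34.2 CPM in *Nod2*-/- mice, the highest being WT replicate 4, and 5 of 6 tested were lower at unadjusted p under 0.05, as were 10.2% of all genes. In bulk tissue, fewer cells of a type and less RNA per cell cannot be told apart.

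The 300 bases around each RefSeq start site (250 before to 50 after, GRCm38.p6) were searched for the p53 response element, a pair of adjacent half-sites of 10 bases each, without a gap and with the C and G of each half-site intact. The element is its own reverse complement, so that 1 search covered both strands. Of 32851 such windows in the mouse genome, 22 (0.067%) held a run with at most 1 mismatch. Among the 9 of the 10 genes that had a window, 2 held such a run, *Cdkn1a* and *Ccng1*. A run with 3 mismatches, a match that 1.38% of all windows reached or bettered, lay in windows of *Bbc3* and of *Trp53* itself. *Zmat3* had no window and was not searched. The closest matches among the 8 targets searched are given in capitals with the bases beside them in lower case, 5′ to 3′ on the strand of the gene, to let the element be read against the levels of its gene.
*Cdkn1a*: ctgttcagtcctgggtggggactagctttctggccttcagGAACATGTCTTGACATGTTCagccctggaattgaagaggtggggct
*Ccng1*: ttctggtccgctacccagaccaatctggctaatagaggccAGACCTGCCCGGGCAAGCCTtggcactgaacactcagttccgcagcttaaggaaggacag
*Bbc3*: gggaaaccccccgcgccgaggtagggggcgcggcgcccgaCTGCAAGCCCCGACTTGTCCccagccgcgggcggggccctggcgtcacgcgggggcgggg

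The *Cdkn1a* run (chr17:29090928-29090947, plus strand) ended 31 bases before the more upstream of the gene's start sites. The *Ccng1* run (chr11:40755462-40755481, minus strand) ended 175 bases before the start site and the *Bbc3* run (chr7:16309486-16309505, plus strand) 77 bases before it, the latter within an intron of a longer *Bbc3* transcript. The best runs of *Phlda3*, *Bax*, *Btg2*, *Mdm2* and *Eda2r* had 5 to 9 mismatches, which 12.4% or more of all windows matched. A match is a description of the letters in these windows only, since p53 also binds in introns and far upstream.

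*Cdkn1a*, *Btg2*, *Phlda3* and *Bbc3* had the largest fold differences between the genotypes, with 1.87 to 2.46 times the WT mean in *Nod2*-/- livers, but no gene of the 10 passed 5% FDR by edgeR (quasi-likelihood test, Benjamini-Hochberg adjustment over all 13545 genes). In that test 88 genes were higher (0.650% of those tested) and 69 lower (0.509%) in *Nod2*-/- mice. The log2 fold change was above 0 in 8 of the 10 genes, against 52.3% of all genes tested, and its median over the 10 was 0.29, against 0.02 over all genes. *Bax*, *Bbc3*, *Btg2* and *Cdkn1a* had an unadjusted p under 0.05, all higher in *Nod2*-/- mice, in a test where 12.9% of all genes were higher at that level. By an exact permutation test of the difference in mean normalized counts (two-sided, 1716 splits of 6 against 7 mice, smallest p 0.000583), *Bax* and *Bbc3* had unadjusted p-values of 0.0157 and 0.0443, which became 0.158 and 0.225 after adjustment over all genes. At an unadjusted permutation p under 0.05 stood 21.1% of all genes tested, and after adjustment 0.00% did.

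**Figure D1:**
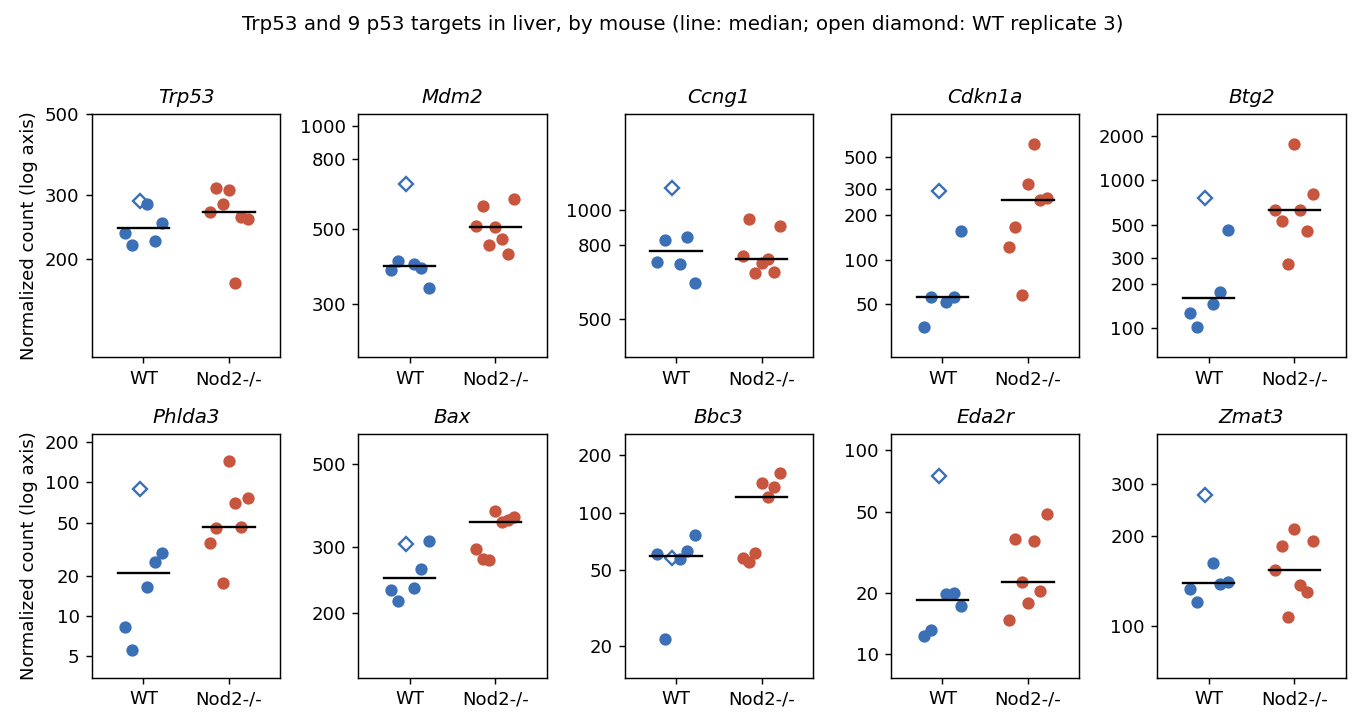
Normalized counts on a log axis of *Trp53* and 9 p53 targets in the liver of each of 6 WT (blue) and 7 *Nod2*-/- mice (red), with a line at each group's median and WT replicate 3 as an open diamond. The groups overlapped for every gene, and the diamond is the top point of the 13 for *Mdm2*, *Ccng1*, *Eda2r* and *Zmat3*.

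*Trp53* (chr11:69580359-69591873, GRCm38 with GENCODE M21 as for all genes here) showed the narrowest spread in WT mice. Normalized counts (divided by the effective library size and brought to its mean over the mice) had a lowest, median and highest value of 219, 244 and 290 in WT and 172, 270 and 313 in *Nod2*-/- mice. The groups overlapped over most of their range, and *Nod2*-/- replicate 5, the mouse with the most *Cdkn1a*, had the least *Trp53*. The means of 251 ± 30.1 (SD, n = 6) and 267 ± 47.2 (SD, n = 7) gave a log2 fold change of 0.09 ± 0.13 (SE). The groups of none of the 10 genes were apart, which held for 102 genes higher in *Nod2*-/- mice (0.753% of those tested).

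*Mdm2* (chr10:117688875-117710758), the ligase that holds p53 down, had a lowest, median and highest normalized count of 336, 389 and 678 in WT and 422, 505 and 611 in *Nod2*-/- mice. All 7 *Nod2*-/- mice were above the 5 WT mice other than replicate 3, which was the highest of all 13. That separation, looked at after the values were seen, was shared by 370 genes (2.73% of those tested) when replicate 3 was set aside. With all 13 mice *Mdm2* had 0.24 ± 0.15 on the log2 scale (adjusted p = 0.353, edgeR).

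*Ccng1* (chr11:40748552-40755311) encodes cyclin G1, which brings the phosphatase PP2A to Mdm2. Its normalized counts had a lowest, median and highest value of 627, 771 and 1148 in WT and 669, 731 and 942 in *Nod2*-/- mice. Only 2 of 7 *Nod2*-/- mice exceeded the WT median, and the log2 fold change was -0.08 ± 0.13. Of the 9 targets only *Zmat3* had a smaller difference, and *Ccng1* held a promoter match as close as that of *Cdkn1a*.

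*Cdkn1a* (chr17:29090976-29100727) encodes p21, the inhibitor of cyclin-dependent kinases through which p53 halts the cell cycle. In WT mice replicates 1 to 6 had normalized counts of 34.9, 55.9, 292, 51.5, 56.3 and 157. In *Nod2*-/- mice replicates 1 to 7 had 123, 167, 57.5, 328, 607, 256 and 261. Most WT livers were low, yet replicate 3 exceeded 5 of the 7 *Nod2*-/- livers, and *Nod2*-/- replicate 3 was near the low WT mice. All 7 *Nod2*-/- mice were above the WT median and 2 were above every WT mouse. The means were 108 ± 100.2 (SD, n = 6) and 257 ± 179.8 (SD, n = 7). On the log2 scale the difference was 1.24 ± 0.55 (adjusted p = 0.197, edgeR). Of the exon bases of *Cdkn1a*, 7.7% overlap AC167363.2 on the opposite strand, and the strand setting of the counting is not given in the sources used here, so that a share of these reads is uncertain.

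*Btg2* (chr1:134075170-134079120), an antiproliferative gene whose protein recruits the deadenylases that shorten mRNA tails, had the largest fold change of the 10. Replicates 1 to 6 of WT had normalized counts of 127, 102, 765, 146, 177 and 462. Replicates 1 to 7 of *Nod2*-/- had 631, 535, 274, 1752, 635, 456 and 809.5. *Nod2*-/- replicate 4 stood far above all others, and WT replicate 3 came next to *Nod2*-/- replicate 7 at rank 3 of 13. The fitted log2 fold change of *Btg2* was 1.29 ± 0.51 (adjusted p = 0.152, edgeR). It was the one member past 5% FDR by limma with sample quality weights, at 1.62 (adjusted p = 0.0373), where 3.83% of all genes were higher and 2.39% lower. The study selected *Btg2* on these libraries, so that its direction is not independent evidence.

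*Phlda3* (chr1:135766119-135769136) encodes a pleckstrin homology domain protein that keeps the kinase Akt from the membrane. Its normalized counts were low, with a lowest, median and highest value of 5.48, 20.9 and 89.5 in WT and 17.5, 46.7 and 144 in *Nod2*-/- mice. WT replicate 3 had 5.26 times the mean of the other WT mice and only *Nod2*-/- replicate 4 exceeded it. Without regard to replicate 3, 6 of 7 *Nod2*-/- mice were above all other WT mice. The fitted difference of *Phlda3* was 1.07 ± 0.57 on the log2 scale (adjusted p = 0.273, edgeR).

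*Bax* (chr7:45461697-45466898), which forms pores in the outer mitochondrial membrane, differed little in size but with a narrow spread. Its normalized counts were 229.6, 215, 306, 232, 262 and 312 in replicates 1 to 6 of WT and 297, 279, 277, 375, 351, 354 and 361 in replicates 1 to 7 of *Nod2*-/- mice. *Nod2*-/- replicates 4 to 7 were above every WT mouse, and replicates 1 to 3 lay within the WT range. The difference of 0.33 ± 0.11 on the log2 scale did not pass (adjusted p = 0.113, edgeR). *Bax* shares 12.2% of its exon bases with Gm45808 on the same strand, and reads there cannot be given to either gene.

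*Bbc3* (chr7:16308393-16318205) encodes Puma, a BH3-only protein that frees Bax from its inhibitors. Its normalized counts were 60.5, 21.9, 57.8, 57.0, 63.0 and 76.1 in replicates 1 to 6 of WT and 58.2, 55.5, 61.6, 143, 121, 135 and 161 in replicates 1 to 7 of *Nod2*-/- mice. The *Nod2*-/- mice fell on both sides of a gap, with replicates 1 to 3 at the WT level and replicates 4 to 7 above every WT mouse, and these were the 4 mice that exceeded all WT mice for *Bax*. WT replicate 3 did not stand out, at rank 10 of 13 for *Bbc3* and 6 of 13 for *Bax*. Its log2 fold change was 0.90 ± 0.31 (adjusted p = 0.118, edgeR).

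*Eda2r* (chrX:97333840-97377216), a receptor of the TNF receptor superfamily for ectodysplasin A2, had a lowest, median and highest normalized count of 12.3, 18.5 and 75.0 in WT and 14.8, 22.6 and 49.0 in *Nod2*-/- mice. WT replicate 3 had 4.56 times the mean of the other WT mice and was above all *Nod2*-/- mice. The log2 fold change was 0.10 ± 0.43. *Zmat3* (chr3:32334792-32366014), which encodes a zinc finger protein that binds RNA, had a lowest, median and highest normalized count of 121, 140.0 and 275 in WT and 108, 154 and 212 in *Nod2*-/- mice. Its groups overlapped throughout, WT replicate 3 was again the highest of 13, and the log2 fold change was -0.02 ± 0.20.

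In 7 of the 9 targets, all but *Bax* and *Bbc3*, no WT mouse had more than WT replicate 3. It was the highest of 13 mice in 4 of the 9 targets and among the top 3 in 7 of 9, whereas over all genes tested it was the highest in 11.5% and among the top 3 in 28.0%. Each mouse was left out in turn, and replicate 3 was singled out for its high values in these same genes. Leaving out a WT mouse with high counts of a gene raises its fold change, so that the calls below are not independent support. Without replicate 3, edgeR placed *Mdm2*, *Btg2*, *Phlda3* and *Cdkn1a* past 5% FDR. Their log2 fold changes were then 0.40, 1.82, 1.84 and 1.82, and their adjusted p-values 0.0339, 0.0348, 0.0433 and 0.0461. In that fit 697 genes (5.12% of those tested) were higher and 459 (3.37%) lower, beside 4 higher and 0 lower of the 10 p53 genes. *Bax* and *Bbc3*, in which replicate 3 was not extreme, had 0.38 and 0.90 without it (edgeR, adjusted p = 0.0615 and 0.111). The log2 fold change of *Eda2r* was then 0.77 in place of 0.10 (edgeR, adjusted p = 0.128) and that of *Trp53* was 0.12. No member passed in any fit that left out another single mouse.

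**Figure D2:**
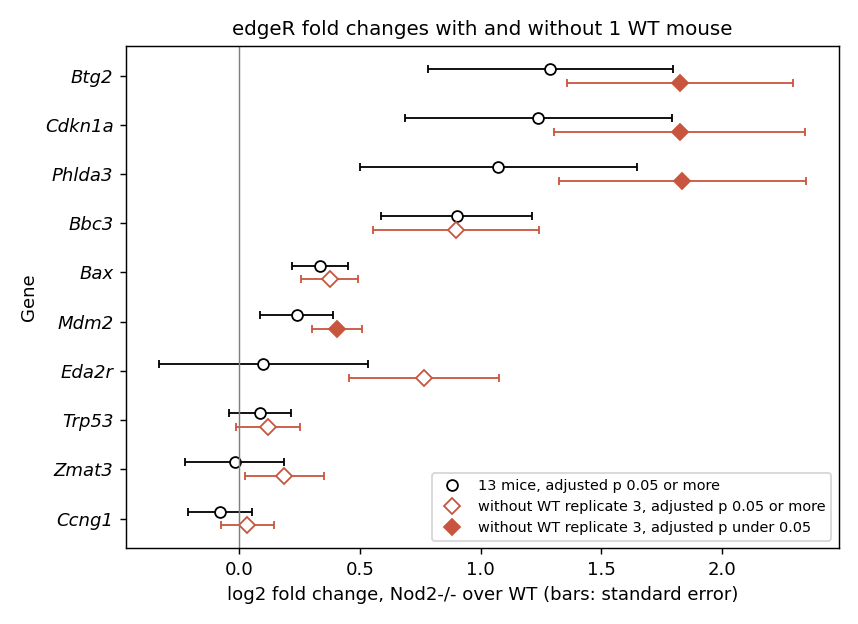
Log2 fold change of *Nod2*-/- over WT (x axis, bars are SE) of each gene (y axis) from edgeR with 13 mice (circles) and without WT replicate 3 (diamonds, filled where the adjusted p was under 0.05). No gene passed with 13 mice, and *Btg2*, *Cdkn1a*, *Phlda3* and *Mdm2* passed without that mouse, which was singled out for its high values in these genes.

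By mouse, the mean log2 deviation of the 9 targets from their means over 13 mice ran from -1.01 in WT replicate 2 to 0.78 in *Nod2*-/- replicate 4. WT replicate 3 was second at 0.76, followed by *Nod2*-/- replicates 7 and 5 at 0.74 and 0.59. WT replicates 1, 2, 4 and 5 and *Nod2*-/- replicate 3 had the lowest values, between -1.01 and -0.40. *Nod2*-/- replicate 7 was above the mean for 9 of 9 targets and WT replicate 3 for 8 of 9, while WT replicate 1 and *Nod2*-/- replicate 3 were above it for 0 of 9. Mice of high and of low target levels occurred in both genotypes. The targets did not all peak in the same mouse: *Btg2*, *Phlda3* and *Bax* were highest in *Nod2*-/- replicate 4, *Cdkn1a* in replicate 5 and *Bbc3* in replicate 7.

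**Figure D3:**
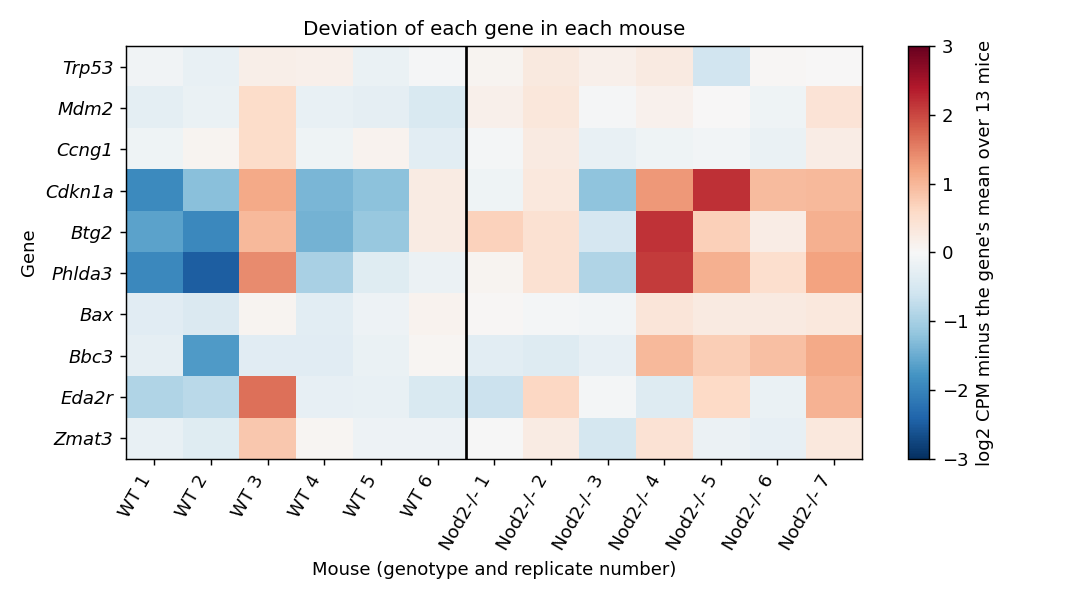
Log2 CPM of each gene (rows) in each mouse (columns, WT left of the line) minus the gene's mean over 13 mice, from blue (lower) to red (higher). WT replicate 3 is the reddest WT column for 7 of the 9 targets, and *Nod2*-/- replicate 3 is blue or near white in the rows of all 9.

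Levels of the targets were correlated across mice. Pearson's r of log2 CPM over the 13 mice was above 0 in 42 of 45 pairs of the 10 genes, with a median of 0.55. By permutation (100000 resamples, adjusted over the 45 pairs), 21 pairs passed 5% by Pearson's r and 10 of these also by Spearman's rho, all with r above 0. The share of pairs of other genes that would pass was not computed, so that the count cannot be called particular to p53 targets. Genes outside the 10 reached r of 0.96 with a member, as given below. The closest pair was *Phlda3* and *Btg2* (r = 0.94, rho = 0.95), and r was 0.90 without the 2 mice farthest from the median of *Phlda3*. *Bax* and *Btg2* had an r of 0.91 and *Cdkn1a* and *Phlda3* of 0.88. Both genes of cell cycle arrest, *Cdkn1a* and *Btg2*, correlated with *Bax* and *Bbc3* at r between 0.67 and 0.91, all 4 past 5% by Pearson's r. Their pairs with *Bbc3* did not pass by Spearman's rho (adjusted permutation p = 0.114 and 0.127). With each mouse taken relative to its genotype's mean, r of both pairs with *Bbc3* was 0.52, which did not pass. A second set of pairs, picked out after the values were seen, joined *Mdm2*, *Ccng1*, *Zmat3* and *Eda2r*, with r between 0.66 and 0.79 in all 6 pairs. The 6 passed by Pearson's r and none by Spearman's rho, and all 4 genes peaked in WT replicate 3. Without that mouse r in these 6 pairs was 0.40 to 0.68 and none passed. The sets were not separate. Of the pairs that join them 5 passed by Pearson's r, at 0.63 to 0.69: *Phlda3* with *Mdm2*, *Zmat3* and *Eda2r*, and *Btg2* with *Mdm2* and *Zmat3*. *Mdm2* with *Phlda3* and with *Btg2*, and *Zmat3* with *Btg2*, passed by Spearman's rho too. *Ccng1* had r of -0.03 with *Bax* and -0.20 with *Bbc3*. None of the 9 pairs with *Trp53* passed, at r between -0.06 and 0.49.

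Most pairs of the 10 genes also had r above 0 within each genotype, WT replicate 3 included. With each mouse taken relative to its genotype's mean, 17 pairs passed and the median r was 0.51. Within the 6 WT mice the median r was 0.64 and within the 7 *Nod2*-/- mice 0.33, with r above 0 in 43 and 35 of the 45 pairs, a difference that was not tested. *Phlda3* and *Btg2* had r of 0.92 in WT and 0.93 in *Nod2*-/- mice. *Mdm2* and *Ccng1* had r of 0.93 and 0.94. Without WT replicate 3 the median over the other mice was 0.49 and 10 pairs passed, against 12 without WT replicate 2 and 11 without *Nod2*-/- replicate 7.

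**Figure D4:**
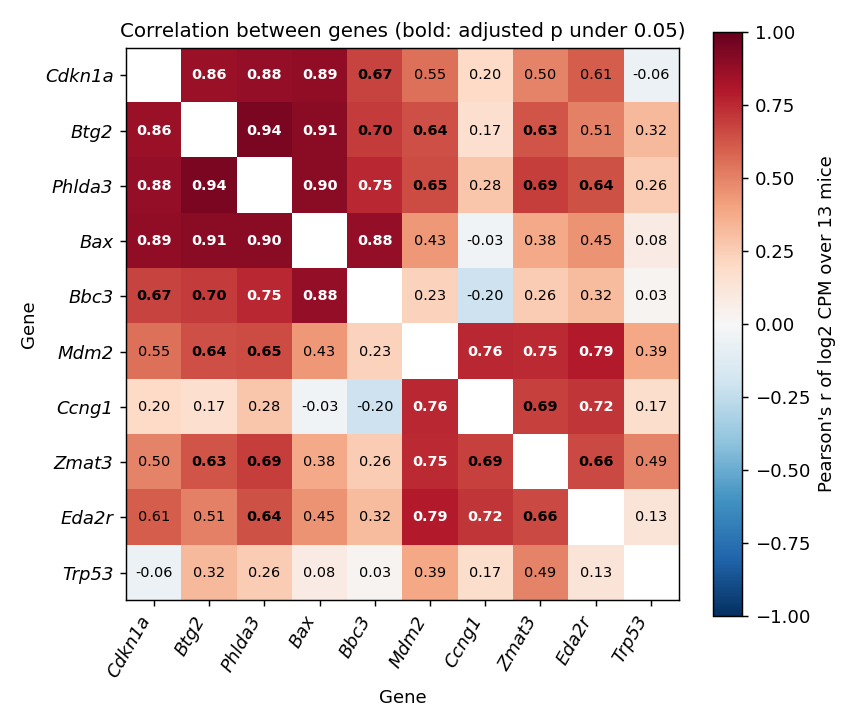
Pearson's r of log2 CPM over 13 mice for each pair of the 10 genes (both axes), bold where the permutation p adjusted over 45 pairs was under 0.05. *Cdkn1a*, *Btg2*, *Phlda3*, *Bax* and *Bbc3* are bold in all pairs among themselves, as are *Mdm2*, *Ccng1*, *Zmat3* and *Eda2r*, and 5 pairs between these sets are bold too, while no pair with *Trp53* is.

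Per kilobase of exon, *Ccng1*, *Bax* and *Btg2* were the most abundant of the 10 mRNAs. The median level over 13 mice in FPKM (CPM divided by the kilobases of the union of exons) was 12.6 for *Ccng1*, 11.4 for *Bax*, 10.2 for *Btg2*, 5.30 for *Mdm2*, 3.90 for *Trp53* and 2.67 for *Cdkn1a*. *Bbc3*, *Phlda3*, *Zmat3* and *Eda2r* followed at 1.75, 1.35, 0.743 and 0.204 FPKM. The ranges of all 9 pairs of neighbours in this order overlapped. *Mdm2* was above *Trp53* and *Zmat3* above *Eda2r* in 13 of 13 mice, whereas *Bax* was above *Btg2* in 7 of 13. *Btg2* had a median of 3.55 FPKM in WT and 13.9 FPKM in *Nod2*-/- mice. With the longest transcript as the length, *Bax* and *Ccng1* changed places.

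Outside the 10 genes, the genes whose log2 CPM was most like that of a target over the 13 mice are given by Pearson's r as a description. *Cdkn1a* was most like *Ocstamp*, *Kctd11* and *Hilpda* (r = 0.90, 0.90 and 0.89). *Mdm2* was most like *Ino80d* (r = 0.94), *Ddias* (0.92) and *Orai2* (0.91), and *Phlda3* was most like *Tceal9*, *Fam187b* and *Vasp* (r = 0.94 each). *Tceal9* and *Tmc5* were among the genes most like *Btg2* (r = 0.96 each), so that *Tceal9* was near both *Phlda3* and *Btg2*. For *Eda2r* the nearest were *Itga9* (0.89), *Med12l* (0.87) and *Pla2g4a* (0.86). Each of these r values was 0.82 or more without WT replicate 3.

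A wider list of 35 p53 targets had a smaller median fold change than the 10 genes. Of 30 tested, 0 passed 5% FDR by edgeR, and 3 higher and 4 lower genes had an unadjusted p under 0.05, as had 12.9% and 10.2% of all genes. Their log2 fold changes were above 0 in 20 of 30, with a median of 0.11. *Plk2*, a polo-like kinase, came closest, with a median normalized count of 107 in WT and 177 in *Nod2*-/- mice and a difference of 0.71 ± 0.18 on the log2 scale (adjusted p = 0.0644, edgeR). *Plk3*, a kinase of the same family, was on the other side, at 858 and 556 (-0.63 ± 0.22), as was the sulfatase *Sulf2* at 475 and 284 (-0.75 ± 0.24). WT replicate 3 was the highest mouse in 13 of these 30 targets and among the top 3 in 16. Without it 6 of the targets passed 5% FDR, in a fit where 5.12% of all genes were higher, all 6 higher in *Nod2*-/- mice: *Plk2*, the death receptor *Tnfrsf10b*, the apoptosome gene *Apaf1*, *Ckap2*, *Ddit4l* and *Psrc1*. *Tnfrsf10b* then had a log2 fold change of 2.24 (adjusted p = 0.0102), against 1.22 (0.199) with all mice. The direction of *Psrc1* turned, from a log2 fold change of -0.18 with all mice to 2.71, since WT replicate 3 had 183 normalized counts and the other WT mice 1.03 to 10.6. *Gadd45a* and *Gdf15*, a DNA damage gene and a stress cytokine, had log2 fold changes of 0.20 and 0.06.

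No regulator of p53 passed with all mice. Of 25 listed genes 22 were tested and 0 passed, and their log2 fold changes lay between -0.38 and 0.22. At unadjusted p under 0.05 stood 2, both lower in *Nod2*-/- mice, beside 10.2% of all genes that were lower at that level. The ubiquitin ligase *Cop1*, which also marks p53 for degradation, had a median normalized count of 699.8 in WT and 612 in *Nod2*-/- mice (log2 fold change -0.21 ± 0.08, adjusted p = 0.128, edgeR). *Topors*, another ligase, had 469 and 399.8, and *Ppp1r13b*, whose product steers p53 to apoptotic targets, had 216 and 257. *Mdm4*, the partner of *Mdm2*, had a log2 fold change of 0.16 ± 0.13 and the kinase gene *Atm* of -0.32 ± 0.23. The listed regulators *Cdkn2a*, *Trp63* and *Trp73* were below the filter on low counts and were not tested. *Cdkn2a* had 59.6 normalized counts in WT replicate 3 and 52.9 in *Nod2*-/- replicate 4, and 2.05 to 13.7 in the other mice. Without WT replicate 3 *Cop1* passed 5% FDR at -0.27 (adjusted p = 0.0446, edgeR), in a fit where 3.37% of all genes were lower.

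The families to which *Bbc3*, *Bax*, *Cdkn1a* and *Btg2* belong were compared by the other members of each. Of 11 tested genes of the BCL2 family 9 had log2 fold changes above 0, with a median of 0.24. Of the 11, 4 were higher at unadjusted p under 0.05, as were 12.9% of all genes, and 0 passed. The antiapoptotic *Mcl1* had 0.26 ± 0.10, and the proapoptotic *Bid* and *Bok* 0.32 ± 0.12 and 0.54 ± 0.22. Without WT replicate 3 *Bcl2l11*, which encodes the BH3-only protein Bim, passed 5% FDR at 1.23 (adjusted p = 0.0178, edgeR). In that fit 5.12% of all genes were higher. All 5 tested CDK inhibitors had log2 fold changes above 0 and 2 were higher at unadjusted p under 0.05, as were 12.9% of all genes. *Cdkn3*, listed for its name, encodes a phosphatase and is not of the family of *Cdkn1a*. It was below the filter with all mice and passed without WT replicate 3 at 2.68 (adjusted p = 0.0434, edgeR). *Cdkn2c*, which encodes p18, had a median normalized count of 19.01 in WT and 43.6 in *Nod2*-/- mice (1.35 ± 0.43, adjusted p = 0.0955, edgeR). *Cdkn1b*, which encodes p27, had 0.25 ± 0.09 and *Cdkn2d* 0.44 ± 0.27. The study had itself listed *Cdkn1b* and *Cdkn2c* from these libraries, so that neither is independent evidence. In the BTG and TOB family, *Btg1* had 0.72 ± 0.21 (adjusted p = 0.0807, edgeR), *Btg3* 0.88 ± 0.46 and *Tob1* -0.19 ± 0.16.

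Genes of cell division and of the immediate early response, to which *Btg2* also belongs, had higher medians than the p53 genes. All 11 tested mitosis genes had log2 fold changes above 0 (median 0.94). Of the 11, 7 were higher at unadjusted p under 0.05, as were 12.9% of all genes, and 0 passed. Without WT replicate 3 *Mki67* and *Nusap1* passed (adjusted p = 0.0265 and 0.0319, edgeR), in a fit where 5.12% of all genes were higher. *Cdk1*, the kinase that drives mitosis, had 0.89 ± 0.28, *Aurka* 0.65 ± 0.22 and *Mki67* 1.54 ± 0.52. Of 15 tested immediate early genes 13 had log2 fold changes above 0 (median 0.52). At unadjusted p under 0.05 stood 6 higher and 1 lower, beside 12.9% and 10.2% of all genes. *Ier3*, *Junb* and *Klf6* had 1.52 ± 0.37, 1.17 ± 0.34 and 0.82 ± 0.27 (adjusted p = 0.0579, 0.0807 and 0.108, edgeR), and without WT replicate 3 these 3 and *Klf4* passed. The study selected 6 of the 16 listed mitosis genes and 2 of the 18 immediate early genes on these libraries.

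**Figure D5:**
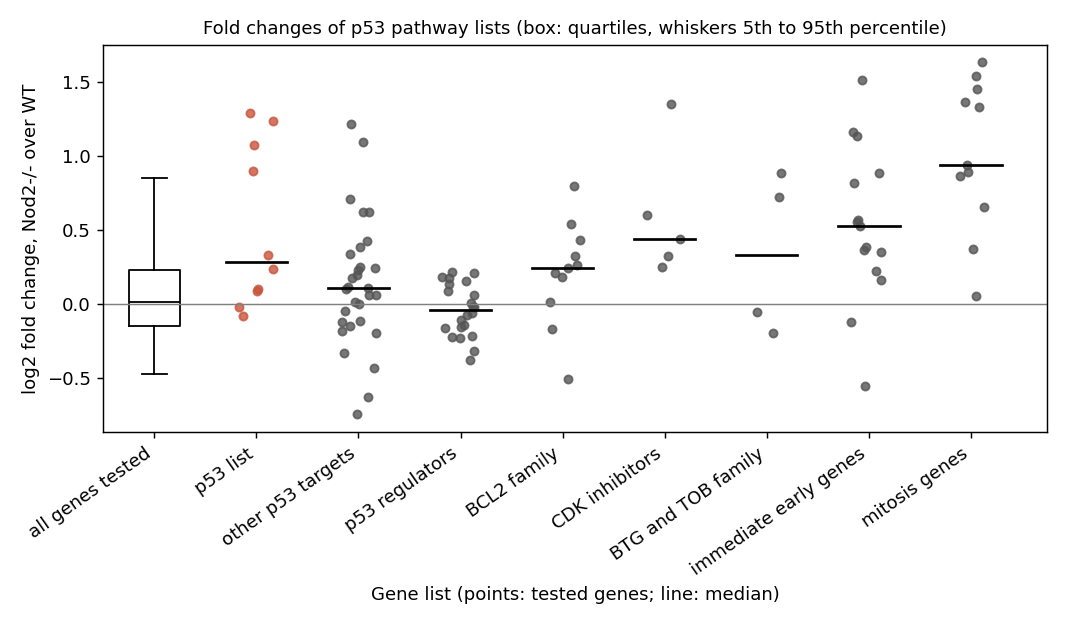
Log2 fold change of *Nod2*-/- over WT (y axis) of the tested genes of each list (points, with a line at the median) beside a box of all 13545 genes tested (quartiles, with whiskers from the 5th to the 95th percentile). The 10 p53 genes have a median of 0.29, the wider target list 0.11, p53 regulators -0.04 and mitosis genes 0.94.

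Levels of marker lists moved with some of the targets. After the values were seen, each of the 10 genes was correlated over 13 mice with the summed level of 9 cell type lists, the mitosis list and the immediate early list, 110 relations in all, with permutation p-values adjusted over the 110. *Btg2* and *Phlda3* followed the sum of 7 cholangiocyte markers at r = 0.89 and 0.85 (rho = 0.84 and 0.78, adjusted permutation p = 0.0066 and 0.0121 by r). Without the 2 mice farthest from the median of the sum r was 0.82 and 0.66. Relative to the genotype's mean, r was 0.82 and 0.78. The 6 WT mice stood in the same order for the sum, for *Btg2* and for *Phlda3*. Within WT mice r with the sum was 0.943 for *Btg2* and 0.981 for *Phlda3*, and within *Nod2*-/- mice 0.573 and 0.362. *Spp1*, which encodes osteopontin and is not limited to cholangiocytes, made up 94.1% of that sum, which ran from 35.9 to 217 CPM in WT and from 108 to 402 CPM in *Nod2*-/- mice. Of the same list *Sox9* had a median normalized count of 49.1 in WT and 123 in *Nod2*-/- mice (log2 fold change 1.29, adjusted p = 0.0324, edgeR). The keratin genes *Krt19* and *Krt7* had log2 fold changes of -0.40 ± 0.42 and -0.05 ± 0.31.

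*Bax* and *Bbc3* followed the neutrophil sum (r = 0.74 and 0.80, adjusted permutation p = 0.0189 and 0.0147), and r was 0.55 and 0.69 relative to the genotype's mean. In *Nod2*-/- replicate 4, next to replicate 7 at 95.2 CPM, *Prtn3* was the largest part of that sum. It had 1223 normalized counts there, beside 162 of *S100a9* and 74.8 of *S100a8*. Without the 2 mice farthest from the median of the sum r was 0.76 for *Bax* and 0.78 for *Bbc3*. *Mdm2* followed the summed level of the 16 mitosis genes (r = 0.84, rho = 0.91, adjusted permutation p = 0.0121), with r of 0.78 in WT and 0.955 in *Nod2*-/- mice. The immediate early sum went with *Btg2*, *Bax*, *Phlda3* and *Cdkn1a* at r of 0.835, 0.793, 0.749 and 0.729. *Eda2r* followed the stellate cell sum at r = 0.791, *Mdm2* and *Eda2r* the endothelial sum at 0.816 and 0.756, and *Bax* the cholangiocyte sum at 0.767. *Bax* with the cholangiocyte sum and *Cdkn1a* with the immediate early sum did not pass by Spearman's rho (adjusted permutation p = 0.0503 and 0.0563). For *Bax* and the cholangiocyte sum r was 0.94 in WT and -0.03 in *Nod2*-/- mice. No relation with the hepatocyte, lung epithelium, Kupffer cell, T cell or B cell sums passed by Pearson's r. By Spearman's rho alone 6 relations passed, those of *Btg2* with the hepatocyte and mitosis sums, *Cdkn1a* and *Phlda3* with the neutrophil sum, *Mdm2* with the cholangiocyte sum and *Phlda3* with the mitosis sum. *Btg2* and the hepatocyte sum had a rho of 0.736 (adjusted permutation p = 0.0439) and an r of 0.677, which was 0.374 without the 2 mice farthest from the median of the sum. The share of all genes that would pass with these sums was not computed. The part of these markers in the levels of the p53 targets was not tested.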

How the data were processed

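RNA was measured as polyA mRNA (TruSeq Stranded mRNA libraries, paired-end reads on a NextSeq 500) from the liver of 13 mice, 1 library per mouse. Per the labels and the submitters' processing notes, the authors trimmed reads with Trimmomatic 0.33 and aligned them with TopHat2 2.1.1 to GRCm38. The deposited values are raw counts per Ensembl gene, neither normalized nor pooled. The counting program and its strand setting are not given in the sources used here. A row without a gene name (1 row, 0 counts) was left out, and 53274 of 53465 identifiers were matched to symbols in GENCODE M21, which also gave positions and exon lengths.

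Counts were normalized by TMM and tested with edgeR 4.0.16 (filterByExpr, quasi-likelihood test, R 4.3.3) in 6 WT against 7 *Nod2*-/- mice, with Benjamini-Hochberg adjustment over 13545 genes at 5% FDR. The 13545 genes held 99.9% of all counts. Normalized counts are counts divided by the effective library size and multiplied by its mean, 16581214. Log2 CPM used a prior count of 0.5. Standard errors were derived from the test statistic. Exact permutation tests and correlations were run in scipy 1.17.1 and numpy 2.4.6 and adjusted over all genes tested or over all pairs. For the members the adjustment over all genes replaced one over the list alone. DESeq2 1.42.0, limma 3.58.1 with sample quality weights, RLE factors, other filters, a replicate block and leaving out each mouse were the alternatives. The scripts were tested on simulated data.

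Named genes were the 10 members, from each pathway list every gene past 5% FDR or else the 3 with the smallest p, and the 3 genes most correlated with each of *Cdkn1a*, *Mdm2*, *Phlda3*, *Eda2r* and *Btg2*. A gene that this rule named is not reported here. Other names were chosen after their values were seen. The members, lists and rules were chosen with earlier results of these data known. Replicate numbers did not pair mice.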

Additional observations from a re-analysis of the deposited data

Results flagged for a closer look

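A sample that lay far from the rest of its group by Dixon's test at the 95% level was marked in 20 of the 88 groups examined, the 10 members and 34 other named genes in each genotype. Chance alone marks about 1 group in 20. Of the 20, 14 were WT replicate 3.

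Among the 10 members 7 of 20 groups were marked. WT replicate 3 was high, in normalized counts, for *Mdm2* (678, the next WT mouse at 403), *Phlda3* (89.5 against 29.5), *Eda2r* (75.0 against 19.9) and *Zmat3* (275 against 163). WT replicate 2 was low for *Bbc3* (21.9, the next at 57.0). *Nod2*-/- replicate 4 was high for *Btg2* (1752 against 809.5), and *Nod2*-/- replicate 5 was low for *Trp53* (172 against 259).

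Among the other named genes WT replicate 3 was high for the 3 genes most like *Mdm2*, with normalized counts of 511 for *Ino80d*, 50.6 for *Ddias* and 45.2 for *Orai2*. It was likewise high for *Itga9* (305), *Med12l* (24.4) and *Pla2g4a* (28.0), the 3 most like *Eda2r*, and for *Ocstamp* (35.2), *Vasp* (431), *Tmc5* (23.5) and *Mki67* (88.6). *Nod2*-/- replicate 4 was high for *Tceal9* (730.0) and *Tmc5* (193), which were among the genes most like *Btg2*. *Nod2*-/- replicate 7 was high for *Cdkn2d* (116). Genes named for their likeness to a member share its extreme mice by their selection, so that these marks are not independent of those of the members.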

How the results depend on the processing

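The count of members past 5% FDR was 0 in each direction by edgeR with all mice, with RLE factors, without a filter, with at least 10 counts in every mouse (which drops *Phlda3*), with the replicate block and by DESeq2. It was 1 higher member by limma with quality weights, and between 0 and 4 when 1 mouse was left out, the 4 being without WT replicate 3. Over all genes the count was 88 higher and 69 lower by edgeR, 605 and 549 by DESeq2, 519 and 324 by limma, and 17 and 18 with the replicate block. With 1 mouse left out the higher genes ranged from 20 to 697 and the lower from 20 to 459, the highest without WT replicate 3 and the lowest without WT replicate 4 (higher) or 1 (lower). Members at unadjusted exact permutation p under 0.05 numbered 2 with all mice, 3 on log2 CPM and from 1 to 5 when 1 mouse was left out, 5 without WT replicate 3 and 4 without *Nod2*-/- replicate 3. With all mice 21.1% of all genes tested stood at that level. The share of all genes on log2 CPM or with 1 mouse left out is not given here, so that those member counts cannot be judged against it. Correlated pairs ranged from 10 to 23 of 45.

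The direction of *Ccng1* turned without WT replicate 3 (log2 fold change 0.0337, range of the 13 fits -0.143 to 0.0337). That of *Zmat3* turned by limma (0.0532) and without WT replicate 3 (0.19) or *Nod2*-/- replicate 3, 5 or 6 (range of all 13 fits -0.10 to 0.19). That of *Eda2r* turned in 4 fits, with WT replicate 1, 2 or 6 or *Nod2*-/- replicate 7 left out (range -0.0878 to 0.77). *Med12l* turned with the block (-0.26) and in 5 fits, those lacking WT replicate 1, 2 or 6 or *Nod2*-/- replicate 5 or 7 (range -0.28 to 0.36). The 7 other members had a log2 fold change above 0 in every alternative, and the cause of the turns was not tested. Same-numbered mice of the 2 genotypes deviated together at r between -0.29 and 0.28, with 1 of 6 pairs over 0.1, so that the numbers were not taken as pairs. At 5.48 to 144 normalized counts *Phlda3* and at 12.3 to 75.0 *Eda2r* had the least depth of the members.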
